A study of Mus musculus with 6 samples.

Results

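The 6 actin isoform genes of the mouse are described here in SVEC4-10 cells exposed to nattokinase and in untreated SVEC4-10 cells. The genes are Acta2 and Actg2 of smooth muscle, Actb and Actg1 of the cytoplasm of all cells, and Acta1 and Actc1 of striated muscle. They were taken as the actin gene family, by a rule that uses no measured value though earlier results of these data were known, and matched by Ensembl identifier. They are 6 of the 55536 genes listed in each library. RNA sequencing gave transcript levels for 3 libraries of cells kept with nattokinase for 24 hours and for 3 libraries of untreated control cells. Nattokinase is a protease of soybeans fermented with Bacillus subtilis and is known for cleaving fibrin. All 6 libraries came from the same immortalised mouse line, labelled as endothelial, grown in high-glucose medium with serum to near confluence. The sources used here do not give the dose, and no genetic change distinguishes the groups. Levels are given as FPKM, reads per length of exon and per library total, so that genes of different length can be compared.

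Actin monomers assemble into filaments that carry cell shape, movement and contraction. The isoforms differ by few amino acids, mostly at the amino terminus, and the cytoplasmic pair is made by nearly every cell, whereas the alpha smooth muscle form encoded by Acta2 is the usual marker of smooth muscle cells and myofibroblasts. Unpolymerised actin holds the coactivators of the MRTF family in the cytoplasm; when monomers are used up, MRTF enters the nucleus and, with the transcription factor SRF, switches on actin genes through a DNA element called the CArG box.

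The libraries rested on 17525090 to 18341370 assigned reads in the nattokinase group and 15044778 to 16496433 in the control group. Protein-coding genes held 98.3% to 98.4% of reads in the nattokinase libraries and 95.4% to 96.7% in the control libraries. Control replicate 1 stood furthest from its own group, with a mean chi-square per gene of 7.35 and 10.75 against the other control libraries. Those differed from each other by 4.19. Values without control replicate 1 are given for each tested isoform, for some gene lists and in the section on processing. Of 12 endothelial marker genes, 0 reached 1 FPKM in at least 3 libraries, and Tie1, Erg, Cldn5 and Emcn had 0 reads throughout, so these markers are absent or near 0. Of 4 lymphatic endothelial markers 2 reached it: Flt4 lay between 10.6 and 11.8 FPKM in all libraries and Pdpn, which fibroblasts also express, averaged 102 FPKM with nattokinase and 119 FPKM in controls (limma adjusted p = 0.027), while Prox1 and Lyve1 had 0 reads. Of 8 fibroblast markers 6 reached it and Thy1 had 0 reads. The list, carried by the collagen genes, summed to 1849 to 1920 FPKM in nattokinase libraries and 2067 to 2215 FPKM in control libraries. Of its members, Col3a1 was lower with nattokinase (log2 fold change -0.58, limma adjusted p = 7.7e-05). Pdgfra and Pdgfrb lay higher in every nattokinase library (log2 fold change 0.14 and 0.18, limma adjusted p = 0.17 and 0.12). Col1a1 (-0.18), Col1a2 (-0.04) and Dcn (0.03) were not called, so the markers of this list did not share 1 direction. The labels do not state that replicates are separate cultures, and each p-value then reflects no more than the spread of these samples, possibly technical.

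The first 60 coding bases show where the isoforms begin to part and why their reads can be told from one another. The sequences are from GRCm38, all 4 genes lie on the minus strand, and capitals mark bases that differ from Acta2 in Actg2 and from Actb in Actg1.
Acta2 at chr19:34252494-34252553: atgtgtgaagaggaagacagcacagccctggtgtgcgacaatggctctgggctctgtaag
Actg2 at chr6:83527382-83527441: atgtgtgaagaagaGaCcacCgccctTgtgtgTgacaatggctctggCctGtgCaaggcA
Actb at chr5:142905627-142905686: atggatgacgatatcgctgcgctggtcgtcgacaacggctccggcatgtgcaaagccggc
Actg1 at chr11:120348032-120348091: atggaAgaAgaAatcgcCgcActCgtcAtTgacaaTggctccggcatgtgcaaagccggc
Actg2 differed from Acta2 at 9 of these bases and lacked a partner for 3 Acta2 bases, and Actg1 differed from Actb at 9. Over the whole coding sequence, identity was 88.65% between Actb and Actg1, the closest of the 15 pairs, and 84.22% between Acta2 and Actg2. The lowest identity of any pair was 81.48%. Of all windows of 100 bases in the main transcript of each isoform, 0 occurred without a mismatch in another isoform. With windows of 50 bases some did, at 2.57% for Actb, 1.94% for Actg1, 2.0% for Acta1 and 0.35% for Acta2.

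Copies elsewhere in the genome are a different matter for the cytoplasmic pair. For Actg1, 51.05% of its windows of 100 bases also occurred in the transcript of another gene, most of them in the processed pseudogene Gm12715, and for Actb the figure was 1.10%. It was 0 for Acta2, Actg2, Acta1 and Actc1. With windows of 50 bases it was 56.7% for Actg1, 14.22% for Actb, 2.22% for Acta1, 0.35% for Acta2, and 0 for Actg2 and Actc1. The sources used here do not say how the counting treated reads that match several places, so the Actg1 level is the least certain of the abundant isoforms. Annotated pseudogene transcripts with at least 85% identity over 300 or more bases of an actin coding sequence came from 17 genes, 16 of them annotated as pseudogenes. Together with the actin-like gene Actbl2, these held 155 to 298 reads per library, which is 0.114% to 0.144% of the reads of the 6 isoforms. Gm12715 alone held 705 reads in the 3 nattokinase libraries and 440 in the 3 control libraries.

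Of the 6 isoforms, 4 passed the filter on low values of at least 1 FPKM in at least 3 libraries, and all 4 of these were higher in nattokinase-treated cells; 0 were lower. Among all 10913 genes tested, 612 were higher, or 5.61%, and 354 were lower, or 3.24%, together 8.85%, by limma at a Benjamini-Hochberg adjusted p of at most 0.05. At an unadjusted limma p under 0.05, 14.2% were higher and 8.67% lower, and by limma-voom 7.99% were higher and 4.23% lower. With levels rescaled to equal protein-coding totals, 478 were higher and 497 lower. Expression changes are given as log2 fold changes of log2(FPKM + 1), nattokinase over control, which understate the change of low genes, while a fold is the ratio of the mean FPKM. The order of levels was Actb, Actg1, Acta2 and Actg2, from high to low, in each of the 6 libraries. In bulk RNA of this kind, a different share of cells of a type and a different amount of RNA per cell cannot be told apart.

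**Figure D1:**
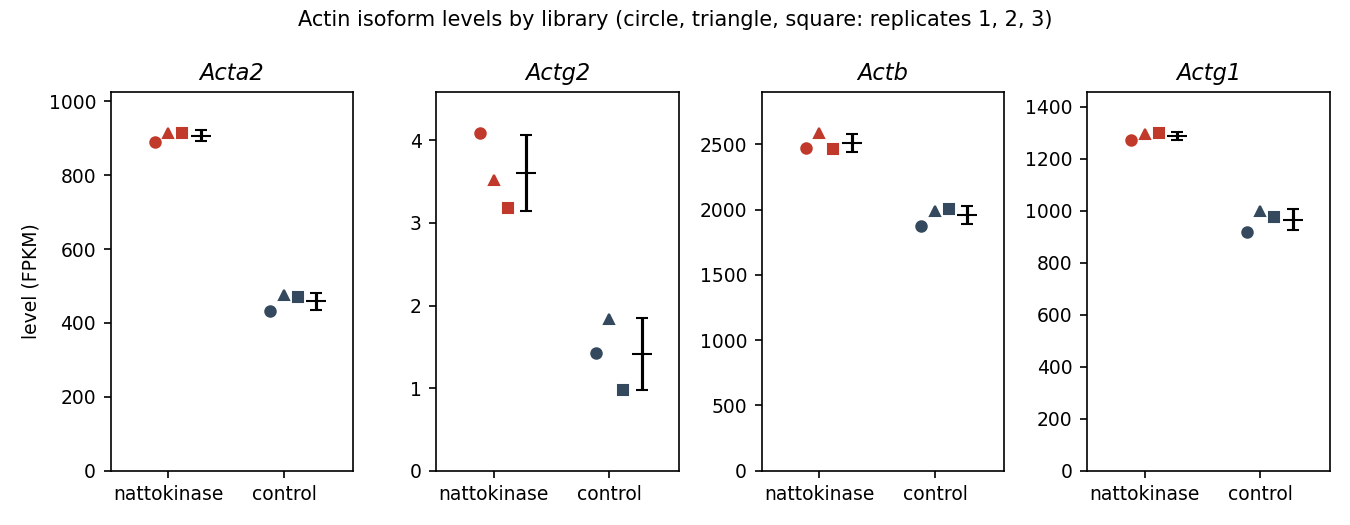
Level in FPKM (vertical axis, from 0) of the 4 measurable actin isoforms in each of 3 nattokinase libraries (red, left) and 3 control libraries (dark, right); the bar beside each group is the mean ± SD. In each panel the lowest nattokinase library lies above the highest control library, and the gap is widest relative to the level for Acta2 and Actg2.

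Acta2, the gene of alpha smooth muscle actin (ENSMUSG00000035783, chr19:34241090-34255590, minus strand, GRCm38), stood at 891, 916 and 915 FPKM in nattokinase replicates 1, 2 and 3, against 432, 475 and 469 FPKM in control replicates 1, 2 and 3. The nattokinase libraries lay close together and all far above the control libraries, of which control replicate 1 was the lowest. The mean was 907 ± 14.1 FPKM with nattokinase and 459 ± 23.1 FPKM in controls (SD, n = 3 each), a 1.98-fold difference. The log2 fold change was 0.98 (SE 0.054, 95% interval 0.86 to 1.11, limma adjusted p = 8.8e-06), which ranked 14 among the 10913 genes tested. By level, Acta2 ranked 22 to 26 among all genes in the nattokinase libraries and 52 to 54 in the control libraries, on 35238 to 36855 reads with nattokinase and 15382 to 16992 in controls. With protein-coding totals its log2 fold change was 0.95, and without control replicate 1 it was 0.94.

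Actg2, the gene of the gamma actin of visceral smooth muscle (ENSMUSG00000059430, chr6:83512905-83536265, minus strand), was measured at 4.10, 3.52 and 3.19 FPKM in nattokinase libraries, against 1.43, 1.84 and 0.973 FPKM in control libraries. Each nattokinase library lay above each control library, although the spread within a group was wide for so low a level. These values rest on 115, 96 and 91 reads with nattokinase and on 36, 43 and 25 reads in controls. The mean was 3.60 ± 0.46 FPKM with nattokinase and 1.41 ± 0.43 FPKM in controls (SD, n = 3 each), a 2.55-fold difference in FPKM. On the log2(FPKM + 1) scale the log2 fold change was 0.94 (SE 0.13, 95% interval 0.65 to 1.24, limma adjusted p = 0.0026). It was 1.39 by limma-voom on the reads recovered from the FPKM steps, which adds less to low values, and 0.95 without control replicate 1. Acta2 stood far above Actg2 in every library, at a ratio of Acta2 to Actg2 between 218 and 482.

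Summed levels of smooth and striated muscle markers were also higher in each nattokinase library than in any control library. Of 8 smooth muscle markers 2 reached the filter, the list summed to 31.5 to 34.6 FPKM in nattokinase libraries and 27.2 to 28.7 FPKM in control libraries, and Myocd, the SRF coactivator of smooth muscle, and Kcnmb1 had 0 reads in all 6 libraries. Smtn carried this sum, at 28.3 to 30.9 FPKM with nattokinase and 25.4 to 27.1 FPKM in controls, and was not called (limma adjusted p = 0.064). Lmod1, the other to reach the filter, averaged 2.04 FPKM with nattokinase and 1.08 FPKM in controls, and Des averaged 0.385 and 0.376 FPKM. Of 8 striated muscle markers Tnnt2 alone reached the filter, the list summed to 4.97 to 5.42 FPKM with nattokinase and 2.55 to 3.29 FPKM in controls, and Ckm, Myog and Myod1 had 0 reads. The part of such cells in the Acta2 and Actg2 results was not tested.

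Actb, the gene of cytoplasmic beta actin (ENSMUSG00000029580, chr5:142903115-142906754, minus strand), was the most abundant isoform, at 2471.2, 2589.4 and 2463.5 FPKM in nattokinase libraries, against 1876.8, 1990.1 and 2002.6 FPKM in control libraries. The groups did not overlap, with control replicate 1 again the lowest library. The mean was 2508 ± 70.6 FPKM with nattokinase and 1957 ± 69.3 FPKM in controls (SD, n = 3 each), or 1.28-fold. The log2 fold change was 0.36 (SE 0.057, 95% interval 0.23 to 0.48, limma adjusted p = 0.0038). Actb ranked 4, 4 and 5 by level among all genes of the nattokinase libraries and 8 in each control library. With protein-coding totals its log2 fold change was 0.32, and without control replicate 1 it was 0.33.

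Actg1, the gene of cytoplasmic gamma actin (ENSMUSG00000062825, chr11:120345690-120348542, minus strand), followed at 1271.5, 1293.8 and 1300.1 FPKM in nattokinase libraries, against 919.1, 999.4 and 976.1 FPKM in control libraries. The nattokinase libraries again formed a tight group above the controls. The mean was 1288 ± 15.0 FPKM with nattokinase and 965 ± 41.3 FPKM in controls (SD, n = 3 each), or 1.34-fold, with a log2 fold change of 0.42 (SE 0.054, 95% interval 0.30 to 0.54, limma adjusted p = 0.0014). It was 0.38 with protein-coding totals and 0.38 without control replicate 1. Exons of Actg1 overlap those of Gm23419 and Mir6935, and the counting is not stated to use strand. All nattokinase libraries lay above all controls for each of the 4 isoforms, as they did for 17.4% of the genes tested; groups without overlap in either direction made up 28.8%.

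The striated muscle isoforms had few or no reads. Acta1, the gene of skeletal muscle actin (ENSMUSG00000031972, chr8:123891769-123894751, minus strand), had 2, 6 and 0 reads in nattokinase libraries, against 3, 1 and 4 reads in control libraries. The groups overlapped, and at 3 reads to 0.106 to 0.130 FPKM this depth could not show a difference. Actc1, the gene of cardiac muscle actin (ENSMUSG00000068614, chr2:114047282-114053548, minus strand), had no read in any library. A count of 0 allows up to 3 reads, or 0.101 to 0.106 FPKM with nattokinase and 0.112 to 0.123 FPKM in controls, for counting error only. Acta1, with 8 reads in each group, and Actc1, with none, stood at the bottom of the order of levels, and neither was tested.

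Summed over the 6 isoforms, actin transcripts reached 4638, 4803 and 4682 FPKM in nattokinase libraries, against 3230, 3466 and 3449 FPKM in control libraries. Actin reads made up 1.20%, 1.24% and 1.21% of all assigned reads with nattokinase and 0.842%, 0.903% and 0.899% in controls. The sum averaged 4707 ± 85.3 FPKM with nattokinase and 3382 ± 132 FPKM in controls (SD, n = 3 each), or 1.39-fold, and no nattokinase library overlapped a control library. An exact two-sided permutation test over the 6 libraries gave p = 0.1, the smallest value that 3 against 3 libraries allow. Of the gain of 1326 FPKM, Actb contributed 552 FPKM or 41.6%, Acta2 449 FPKM or 33.8%, Actg1 324 FPKM or 24.4%, and Actg2 2.19 FPKM or 0.165%. Actb thus held the largest part of the gain in FPKM although its relative difference was the smallest of the 4.

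The composition of the actin pool differed between the groups. Acta2 made up 19.2%, 19.1% and 19.5% of the summed FPKM in nattokinase libraries, against 13.4%, 13.7% and 13.6% in control libraries, which is 19.3% ± 0.25 with nattokinase and 13.6% ± 0.16 in controls (SD, n = 3 each). The replicates of a group differed by less than 1 percentage point, while the groups were 5.72 points apart. Actb made up 53.3% ± 0.65 with nattokinase and 57.9% ± 0.39 in controls, a difference of -4.59 points. The share of Actg1 was 27.4% ± 0.42 with nattokinase and 28.5% ± 0.27 in controls, a difference of -1.16 points. Actg2 stayed a trace component at 0.0765% ± 0.011 with nattokinase and 0.0418% ± 0.013 in controls. For each of these 4 shares the groups did not overlap and the exact two-sided permutation p was 0.1, the smallest possible, or 0.125 after Benjamini-Hochberg adjustment over the 5 isoforms with a value. The shares of a library add up to the whole, so these are not separate results. Levels of Actb and Actg1 were higher with nattokinase although their shares were lower. The share of Acta1 overlapped between the groups (exact permutation p = 0.7). Smooth muscle isoforms together held 19.35% ± 0.24 of the pool with nattokinase and 13.6% ± 0.16 in controls.

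**Figure D2:**
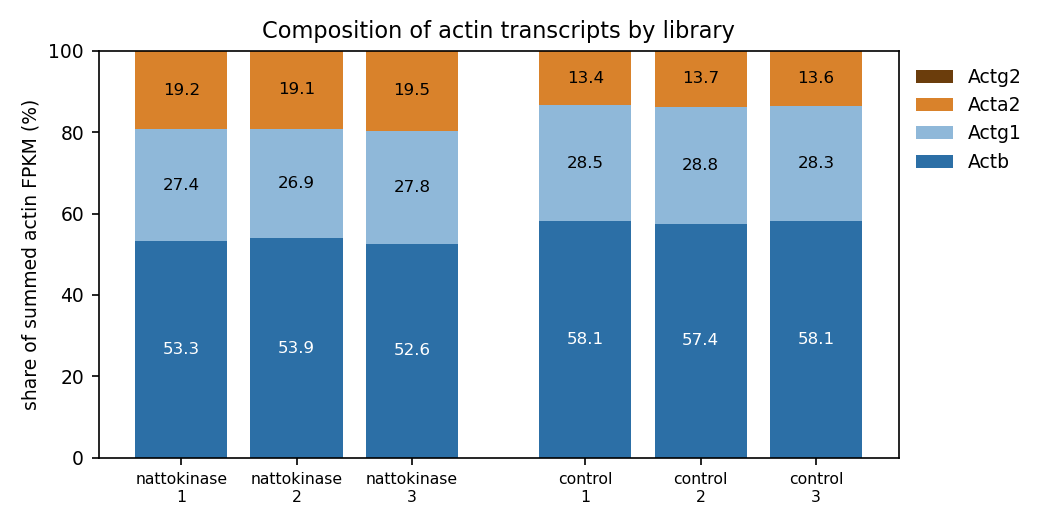
Share of each isoform in the summed FPKM of the 6 actin genes (vertical axis, percent) in the 3 nattokinase libraries (left) and 3 control libraries (right); numbers give the shares of Actb, Actg1 and Acta2, and Actg2, at under 0.1%, is too thin to see. The Acta2 segment is 19.1% to 19.5% in nattokinase libraries and 13.4% to 13.7% in control libraries.

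The size of a share depends on the length taken for each gene. The deposited FPKM use merged exons, at 2679 bases for Actb, 2658 for Actg1 and 2196 for Acta2, whereas the main transcripts measure 1920, 1952 and 2035 bases. With the main transcript lengths, a choice made after seeing the data, Acta2 held 15.7% ± 0.21 of the pool with nattokinase and 10.9% ± 0.13 in controls, a difference of 4.80 points. As a share of reads, Acta2 held 16.4% ± 0.22 with nattokinase and 11.4% ± 0.14 in controls. The groups stayed apart on each of these scales.

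Ratios between isoforms within a library do not depend on how libraries are scaled, and they test whether the isoforms differed by unequal amounts. The ratio of Acta2 to Actb was 0.361, 0.354 and 0.371 in nattokinase libraries, against 0.230, 0.238 and 0.234 in control libraries, a difference of 0.63 on the log2 scale (SE 0.025, n = 3 each). The ratio of Acta2 to Actg1 was 0.701, 0.708 and 0.704 with nattokinase, against 0.470, 0.475 and 0.481 in controls, a log2 difference of 0.57 (SE 0.010). Both ratios were higher in every nattokinase library than in any control library, a gap many times the spread between replicates. The ratio of Actg2 to Actb was higher by 1.03 on the log2 scale (SE 0.29) and that of Actg2 to Actg1 by 0.97 (SE 0.29), again without overlap. Each of these 4 differences had an exact two-sided permutation p of 0.1, the smallest possible, and 0.15 after Benjamini-Hochberg adjustment over the 6 pairs compared, and with 3 libraries a group this test cannot go below 0.1.

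Within each class the ratios of the groups overlapped. The ratio of Actb to Actg1 was 1.94, 2.001 and 1.89 in nattokinase libraries, against 2.04, 1.99 and 2.05 in control libraries. The log2 difference was -0.06 (SE 0.026; -0.11 to 0.0074 over all pairings of libraries; exact permutation p = 0.2, adjusted 0.24). The ratio of Acta2 to Actg2 was 218, 260 and 287 with nattokinase, against 303, 259 and 482 in controls. The log2 difference was -0.41 (SE 0.29; -1.15 to 0.15 over all pairings; exact permutation p = 0.3, adjusted 0.3). It was -0.14 without control replicate 3, and it turned to 0.041 with a pseudocount of 1. Actg2, with at most 115 reads per library, leaves a wide range. A p above the threshold does not show that the isoforms of a class changed by the same amount.

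**Figure D3:**
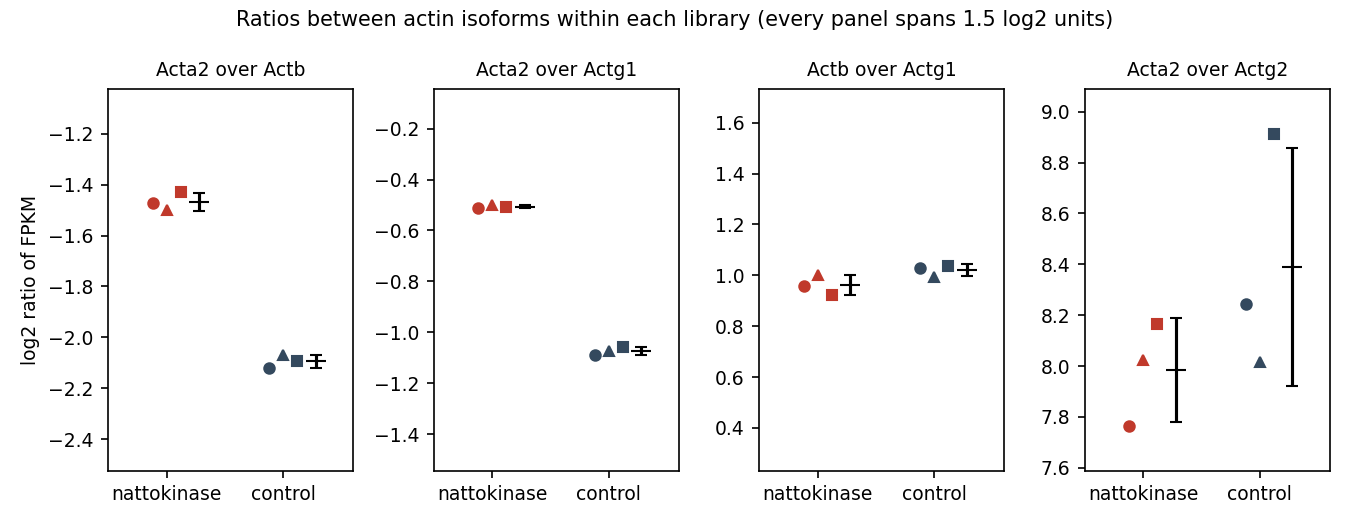
Log2 ratio of FPKM between pairs of isoforms (vertical axis; each panel spans the same number of log2 units) in nattokinase libraries (red, left) and control libraries (dark, right), with the mean ± SD beside each group. The ratios of Acta2 to Actb and of Acta2 to Actg1 do not overlap between groups, whose means differ by 0.63 and 0.57 log2 units, whereas the ratios of Actb to Actg1 and of Acta2 to Actg2 do.

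The promoter windows used here, from RefSeq on GRCm38.p6, run from 250 bases before to 50 bases after the RefSeq gene start and cover 4 of the 6 genes, Acta2, Actg1, Acta1 and Actc1. For Acta2, Actg1 and Actc1 the RefSeq start lies inside the longer GENCODE span given above, and distances are counted from the RefSeq start. Each was searched for the CArG box and for a CArG box with 1 other core base. The pattern is its own reverse complement, so a match counts for both strands. The 30 bases around each match in Acta2 and Actg1, which were higher with nattokinase, and around the full box of Acta1 and Actc1, which were not measurable, are shown with the 10 bases of the match in capitals.
Acta2 at chr19:34255438-34255467, minus strand: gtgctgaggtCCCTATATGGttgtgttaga
Acta2 at chr19:34255388-34255417, minus strand: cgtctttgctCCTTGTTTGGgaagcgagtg
Actg1 at chr11:120348566-120348595, minus strand: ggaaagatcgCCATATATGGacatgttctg
Acta1 at chr8:123894829-123894858, minus strand: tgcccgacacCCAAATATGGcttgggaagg
Actc1 at chr2:114052903-114052932, minus strand: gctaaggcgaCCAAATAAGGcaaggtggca
Acta2 held 2 boxes with 1 other core base, 84 and 34 bases before the gene start, and no full box in this window. Actg1 held 1 full box, 90 bases before the start. Acta1 held a full box at 73 bases before the start and Actc1 at 47, beside further boxes with 1 other core base. Among 32851 promoters of the same length, 1.63% held a full box, 9.98% held a box of either form and 0.822% held 2 or more of either form. A match is a description of the letters and not a measured binding site.

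The regulators that act on actin genes were measured in the same libraries. Of 10 listed SRF and MRTF regulators 8 were tested, 3 were higher and 0 lower, with a median log2 fold change of 0.10, against 0.01 over all genes tested. By unadjusted limma p under 0.05, 4 were higher and 0 lower, and by limma-voom 3 were higher and 0 lower. Over all genes tested the shares were 5.61% higher and 3.24% lower by limma. They were 14.2% and 8.67% at the unadjusted limma p, and 7.99% and 4.23% by limma-voom. The same shares stand beside each list below. Srf, the transcription factor itself, was at 27.9, 29.8 and 30.9 FPKM in nattokinase libraries, against 19.8, 18.9 and 21.9 FPKM in control libraries. All nattokinase libraries lay above all controls, at a log2 fold change of 0.53 (SE 0.062, limma adjusted p = 0.00074). Fhl2, a LIM-domain cofactor that binds SRF, had a log2 fold change of 0.50 (limma adjusted p = 0.0064; not called with no filter on low values), and Elk3, a ternary complex factor that competes with MRTF for SRF, of 0.19 (limma adjusted p = 0.034), a call that was lost in 8 of 13 alternatives. Mrtfa, the coactivator that senses actin monomers, was at 20.6 ± 0.93 FPKM with nattokinase and 18.8 ± 0.54 FPKM in controls (SD, n = 3 each). Its log2 fold change was 0.12 (limma adjusted p = 0.17). Without control replicate 1 or without any other single library, between 2 and 3 of this list were higher.

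Of 22 genes for actin monomer binding and filament turnover 21 were tested, 4 were higher and 0 lower by limma, at a median log2 fold change of 0.09. By unadjusted limma p under 0.05, 8 were higher and 1 lower, and by limma-voom 7 were higher and 0 lower. Dstn, which encodes the actin-depolymerising protein destrin, was at 193, 194 and 194 FPKM in nattokinase libraries, against 135, 140 and 143 FPKM in control libraries. These groups lay far apart relative to their spread, at a log2 fold change of 0.47 (limma adjusted p = 0.00028). Wdr1, a partner of cofilin in filament disassembly, had a log2 fold change of 0.30 (limma adjusted p = 0.0024). Cap1, which recharges actin monomers, and Gsn, the severing protein gelsolin, both stood at 0.20 (limma adjusted p = 0.018 and 0.038), and each lost its call in 7 of 13 alternatives. Without control replicate 1, 2 members of this list were lower, and without nattokinase replicate 2 or 3 or control replicate 2 or 3 the higher count was 2.

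Among 24 genes of actin nucleation 23 were tested, 7 were higher and 0 lower, at a median log2 fold change of 0.14. By unadjusted limma p under 0.05, 11 were higher and 2 lower, and by limma-voom 10 were higher and 0 lower. Some members of the Arp2/3 complex, which starts branched filaments, were among them. The other tested members of that complex were not called, at log2 fold changes from -0.11 to 0.21. Arpc5 averaged 103 ± 2.0 FPKM with nattokinase and 78.8 ± 1.5 FPKM in controls (SD, n = 3 each; log2 fold change 0.38, limma adjusted p = 0.00062). Actr2 and Actr3, the actin-related subunits of that complex, had log2 fold changes of 0.34 and 0.22 (limma adjusted p = 0.0039 and 0.0082). Daam2, a formin that starts unbranched filaments, averaged 16.8 ± 2.2 FPKM with nattokinase and 10.8 ± 0.19 FPKM in controls (log2 fold change 0.58, limma adjusted p = 0.0023). Without nattokinase replicate 2 or without nattokinase replicate 3, 4 of the list were higher.

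Genes for folding and modifying actin and the other actin-related genes were called at a rate near the 5.61% of all genes called higher. Of 17 genes of folding and modification, all tested, 1 was higher and 0 lower by limma, at a median log2 fold change of 0.02. At an unadjusted limma p under 0.05 there were 2 higher and 0 lower, and by limma-voom 1 and 0. The exception was Pdcl3, a phosducin-like cofactor of the chaperonin CCT, at 0.25 (limma adjusted p = 0.014). Its call was lost without nattokinase replicate 2 or 3 and with no filter on low values. Tcp1 and Cct8, subunits of CCT, which folds new actin, had log2 fold changes of 0.10 and 0.08 (limma adjusted p = 0.29 and 0.40), and the prefoldin subunit Pfdn4 had 0.17 (limma adjusted p = 0.15). Of 10 actin-related genes outside Arp2/3 7 were tested, and 0 were higher and 0 lower by limma, by unadjusted limma p under 0.05 and by limma-voom alike. Their log2 fold changes included -0.10 for Actl6a and -0.08 for Actr5 of chromatin remodelling complexes, -0.02 for the dynactin subunit Actr1b and 0.06 for Actr6. The sign for Actr6 was negative in 1 of 13 alternatives.

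Several partners of actin in contraction were higher. Of 12 genes for non-muscle and smooth muscle myosin 7 were tested, 5 were higher and 0 lower, at a median log2 fold change of 0.23. At an unadjusted limma p under 0.05 there were 6 higher and 0 lower, and by limma-voom 6 and 0. Myh10, the heavy chain of non-muscle myosin IIB, averaged 112 ± 7.6 FPKM with nattokinase and 78.4 ± 4.3 FPKM in controls (SD, n = 3 each; log2 fold change 0.50, limma adjusted p = 0.0010). The calls of the regulatory light chain gene Myl12a (0.22, limma adjusted p = 0.033) and of Ppp1r12a, the targeting subunit of myosin phosphatase (0.23, limma adjusted p = 0.037), were lost in 7 and 8 of 13 alternatives. With protein-coding totals 2 of the list were higher. Without nattokinase replicate 2, nattokinase replicate 3 or control replicate 2 only 1 was higher, and without nattokinase replicate 1 there were 2.

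Of 12 smooth muscle contractile genes 4 were tested, 3 were higher and 0 lower, at a median log2 fold change of 0.50. At an unadjusted limma p under 0.05 and by limma-voom alike, 4 were higher and 0 lower. The rest of the list stayed below the filter on low values. Mean reads per library of those genes ran from 0 for Kcnmb1 to 32.2 for Cnn1, with Myh11 at 2.5 and Myl9 at 1.33. Tagln, which encodes the actin-binding protein transgelin, was at 3.12, 3.27 and 3.56 FPKM in nattokinase libraries, against 1.80, 1.44 and 1.77 FPKM in control libraries. The groups did not overlap, and the log2 fold change was 0.70 (SE 0.081, limma adjusted p = 0.00073). Lmod1, a smooth muscle filament nucleator, had 0.54 (limma adjusted p = 0.015), Mylk, the myosin light chain kinase gene that also stands in the myosin list, had 0.45 (limma adjusted p = 0.013), and Smtn, the smoothelin gene, had 0.17 (limma adjusted p = 0.064). Without nattokinase replicate 2 or without nattokinase replicate 3, 1 of the 4 was higher, since Lmod1 and Mylk lost their call. Both also lost it with no filter on low values, and Mylk lost it without control replicate 2.

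Of 19 striated muscle sarcomere genes 2 were tested, with 1 higher and 0 lower by limma, 2 and 0 at an unadjusted limma p under 0.05, and 1 and 0 by limma-voom, at a median log2 fold change of 0.60. Tnnt2, cardiac troponin T, averaged 5.11 ± 0.23 FPKM with nattokinase and 2.85 ± 0.39 FPKM in controls (SD, n = 3 each; log2 fold change 0.67, limma adjusted p = 0.00087), and Myl7, an atrial light chain, had 0.53 (limma adjusted p = 0.10), which passed the threshold without nattokinase replicate 3 and with a replicate block.

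Over all these lists, with each gene once, 88 of 123 genes were tested. By limma 23 were higher and 0 lower, against 5.61% and 3.24% of all genes tested. The median log2 fold change was 0.08. By unadjusted limma p under 0.05, 36 were higher and 3 lower, against 14.2% and 8.67% of all genes tested. By limma-voom 31 were higher and 0 lower, against 7.99% and 4.23%. The higher count fell to 11 without nattokinase replicate 2, 12 without nattokinase replicate 3 and 14 without control replicate 2. In the same runs the higher count over all genes fell from 612 to 330, 342 and 362. Without control replicate 1, 2 genes of these lists were lower. Srf, Dstn, Wdr1, Arpc5, Actr2, Actr3, Daam2, Myh10, Tagln and Tnnt2 kept their call in every alternative run in which they were tested. As a ratio of mean FPKM, the 1.98-fold of Acta2 lay beside 1.99-fold for Tagln, the largest tested and named list gene on that scale. Cnn1 of the contractile list, below the filter and not tested, stood higher at 3.70-fold. It averaged 1.06 FPKM with nattokinase and 0.286 FPKM in controls, on 10 to 55 reads per library. Among the named genes, exons of Mrtfa, Elk3, Cap1, Wdr1, Tcp1, Cct8, Pfdn4, Actr5, Actl6a, Myl12a, Mylk, Smtn and Tagln, and of Ccn2, Igfbp7 and Prps1l3 among the correlated genes, overlap those of another gene, and such reads cannot be told apart without strand.

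**Figure D4:**
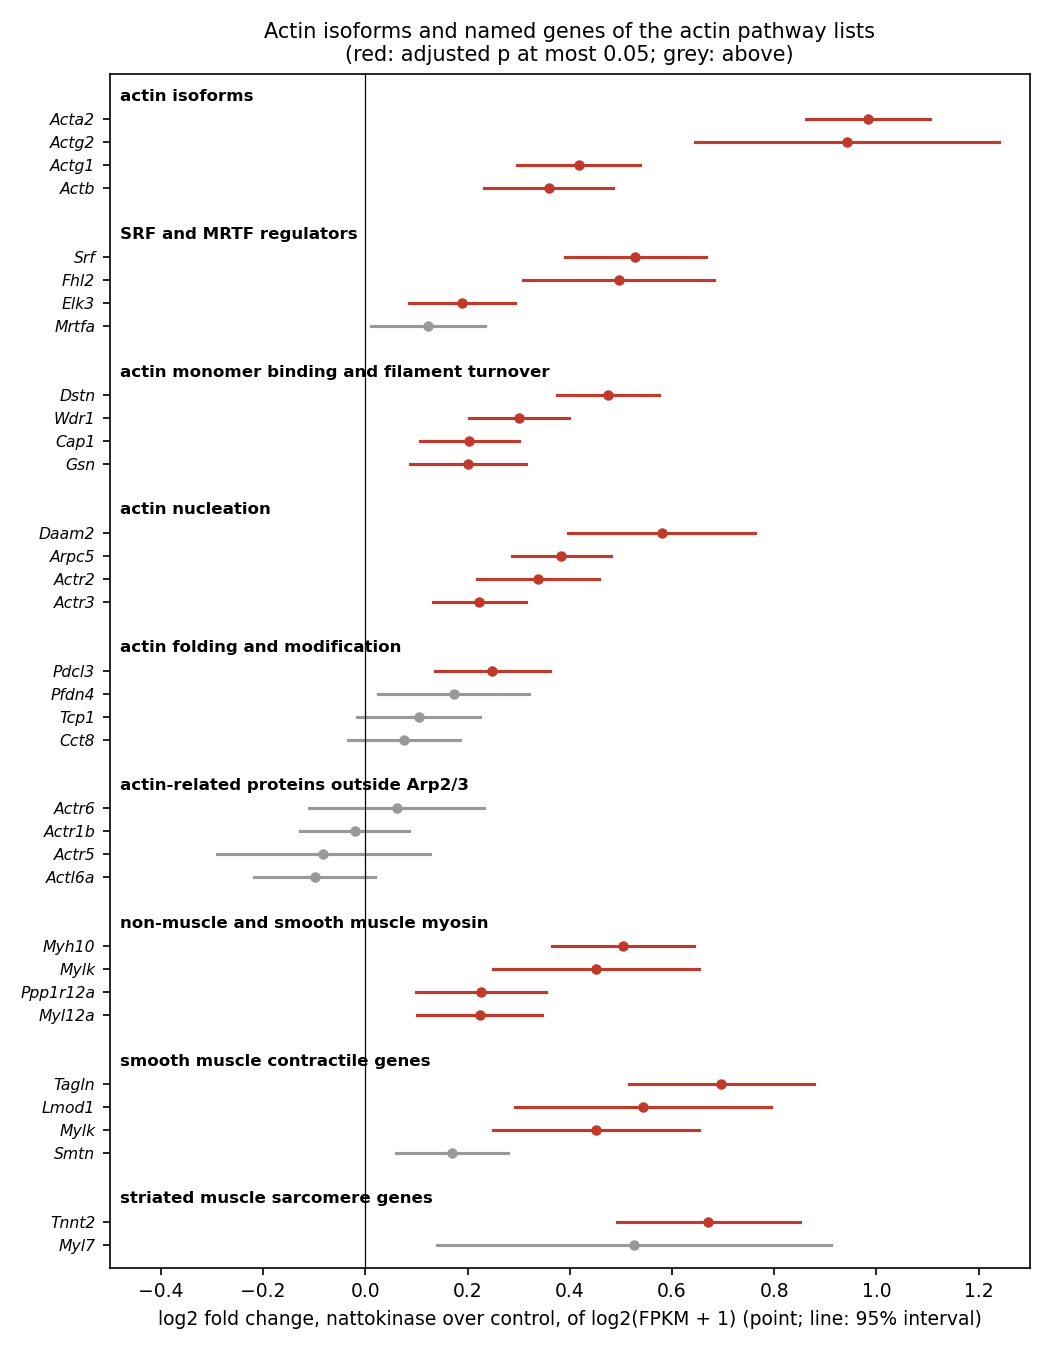
Log2 fold change of log2(FPKM + 1), nattokinase over control (horizontal axis), with its 95% interval, for the 4 measurable actin isoforms and the named genes of each list; red marks a limma adjusted p of at most 0.05 and grey a larger one. Acta2 at 0.98 and Actg2 at 0.94 lie to the right of the named pathway genes, and Actg1 at 0.42 and Actb at 0.36 lie among them.

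The genes whose levels ran most closely with each isoform were taken among 4641 protein-coding genes with a mean of at least 10 FPKM, by Pearson's r of log2(FPKM + 1) over the 6 libraries. This describes 6 points that fall into the 2 groups and share each library's depth. Acta2 ran closest with Ccn2 (r = 0.999), a secreted matrix-associated growth factor, with Dstn (0.999) and with Ccn1 (0.999), a relative of Ccn2. For Actb these were Tpm1, a tropomyosin (0.995), Mapkapk2, a kinase downstream of p38 (0.994), and Mapre1, a microtubule end-binding protein (0.994). For Actg1 they were Cnn2, a calponin (0.999), Igfbp7, a secreted binding protein (0.998), and Snx18, a sorting nexin (0.998). Actg2 ran closest with Rab6b, a Golgi GTPase (0.988), Hmga1b (0.987) and Prps1l3 (0.985). At least r = 0.95 was reached by 222 genes for Acta2, 200 for Actb, 208 for Actg1 and 27 for Actg2. Among the isoforms, r was 0.996 between Acta2 and Actg1, 0.991 between Actb and Actg1, 0.990 between Acta2 and Actb, 0.932 between Acta2 and Actg2, 0.927 between Actg2 and Actg1, and 0.909 between Actg2 and Actb.

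The 3 abundant isoforms kept their call in each alternative. Over the 13 alternatives the log2 fold change lay between 0.94 and 1.01 for Acta2, 0.32 and 0.38 for Actb, and 0.38 and 0.44 for Actg1. The largest limma adjusted p was 0.0012 for Acta2, 0.034 for Actb and 0.015 for Actg1. For Actg2 the log2 fold change ranged from 0.81 to 1.39 over 12 alternatives, with a largest limma adjusted p of 0.040, and Actg2 was not tested when at least 5 FPKM was required.

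**Figure D5:**
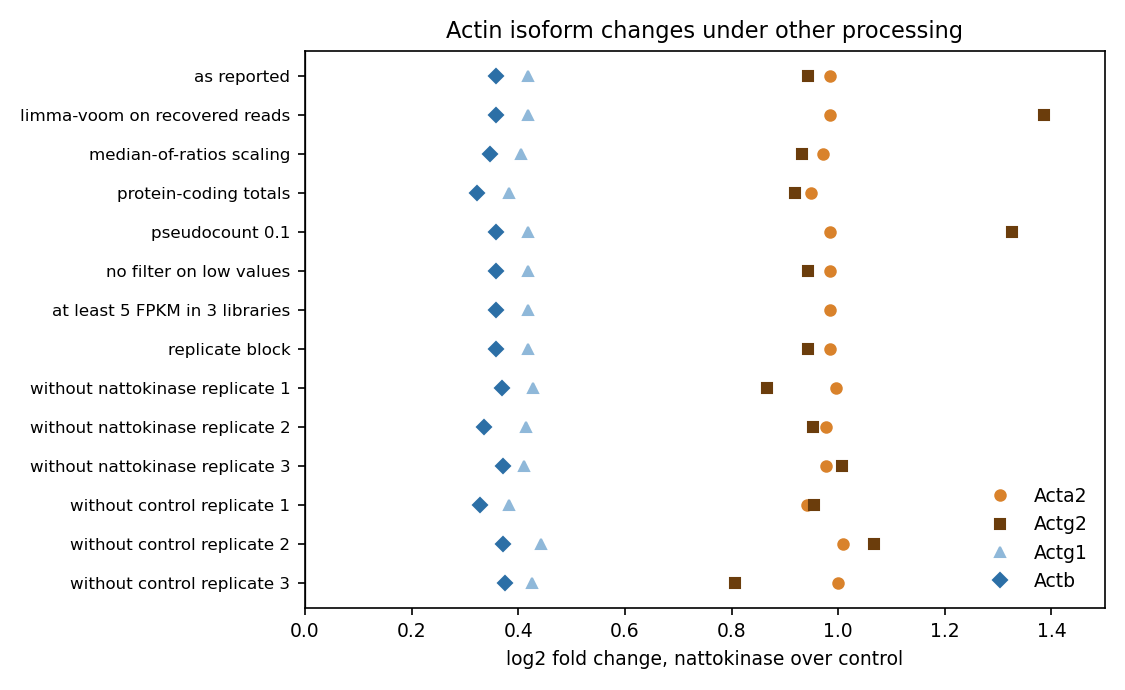
Log2 fold change, nattokinase over control (horizontal axis, from 0), of the 4 measurable isoforms as reported (top line) and under each alternative (lower lines). Acta2, Actg1 and Actb keep within 0.1 of their reported value throughout, and Actg2 moves to 1.39 with limma-voom and to 0.81 without control replicate 3.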

How the data were processed

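RNA was sequenced from 6 SVEC4-10 samples, grouped by their titles. The submitters' processing notes list HISAT2 2.1.0, featureCounts 1.6.0, DESeq2 1.22.1, Trimmomatic 0.38, CASAVA, FastQC and MultiQC, with no role or order, and the build named is human (GRCh38), although the identifiers belong to mouse genes. The authors deposited 1 FPKM value per gene and sample. All 55536 identifiers matched GENCODE M21 (GRCm38), and 100% of values times exon length were whole multiples of 1 step per library within 0.05, which gave the reads. Limits from 3 reads cover counting error only.

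Genes that reached 1 FPKM in 3 or more libraries were tested as log2(FPKM + 1) with limma 3.58.1 in R 4.3.3 (trend, robust, group only, two-sided, Benjamini-Hochberg over all genes at 0.05), and the script was tested on simulated data. Shares, sums and ratios were tested by exact permutation over the 6 libraries. Members and lists were chosen with earlier results of these data known. Named genes are the 6 isoforms, up to 4 tested genes per list with the smallest p, and the 3 genes per isoform with the highest correlation. Coding and exon lengths are from GENCODE M21, promoters from RefSeq. Alternatives were limma-voom on recovered reads, median-of-ratios scaling, protein-coding totals, other pseudocounts and filters, a replicate block, and leaving out single libraries.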

Additional observations from a re-analysis of the deposited data

How the results depend on the processing

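All 4 measurable isoforms were called higher under every alternative, except that 3 were called when at least 5 FPKM was required and Actg2 was not tested. Taking read shares, the Acta2 share differed by 4.99 points and the Actg2 share by 0.021 points. With main transcript lengths, added after seeing the data, the difference was 4.80 points for Acta2, -4.03 points for Actb and -0.80 points for Actg1. Without control replicate 1 the log2 ratio of total actin was 0.45, against 0.48 with all libraries. The Acta2 share then differed by 5.63 points. The log2 difference in that run was 0.61 for Acta2 to Actb and 0.56 for Acta2 to Actg1. With a pseudocount of 1 the log2 difference in the Acta2 to Actg2 ratio turned to 0.041, that of Actg2 to Actb was 0.58 and that of Actg2 to Actg1 was 0.52; adding 1 lowers a change at the level of Actg2 by construction. Over all actin lists the count of higher genes was 11 with no filter on low values and 11 to 25 when 1 library was left out, and the count of lower genes was 1 with protein-coding totals and 0 to 2 when 1 library was left out; the cause was not tested. Over all genes, 221 were higher and 109 lower with no filter, 330 and 198 without nattokinase replicate 2, 342 and 197 without nattokinase replicate 3, 362 and 193 without control replicate 2, and 872 and 462 by limma-voom.

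Same-numbered libraries of the 2 groups deviated from their group means with correlations of -0.089, -0.044 and -0.059, and other-numbered ones with -0.043 to 0.094. Replicate numbers thus gave no sign of pairing. With 3 libraries a group this cannot show whether same-numbered libraries shared a culture or batch. With the replicate number as a block the limma adjusted p was 0.00011 for Acta2, 0.034 for Actb, 0.012 for Actg1 and 0.0010 for Actg2, 439 genes were higher and 249 lower over all genes, and Myl7 was called higher. Depth limits Actg2, with 25 to 115 reads per library, and leaves Acta1 and Actc1 without a test.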

Other observations

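Actb is often used to scale RT-PCR measurements, and 14 other genes in common use for this were set beside it, a list written after the actin values were seen. By limma 0 of the 14 were higher and 0 lower in nattokinase-treated cells; at an unadjusted p under 0.05 the counts were 0 and 1, and by limma-voom 0 and 0. Their ratio of mean FPKM, nattokinase over control, ran between 0.898 and 1.08. The ratio of Actb to each of them was higher with nattokinase for 14 of 14, by 1.18-fold to 1.43-fold. These ratios all share Actb, at 1.28-fold, so their common direction follows from that value and they are not separate comparisons. Gapdh, a glycolytic enzyme gene, averaged 398 ± 9.3 FPKM with nattokinase and 431 ± 29.2 FPKM in controls (SD, n = 3 each; limma adjusted p = 0.30), and the ratio of Actb to Gapdh was 1.39-fold higher with nattokinase.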
